A study of Homo sapiens and Mus musculus with 10 samples.

Results

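A group of 10 genes had fewer reads in both libraries of a UFD1s-deficient HEK293T line than in the wild-type (WT) libraries counted with them. They are VPS9D1-AS1, ALPK3, GBX2, EN2, FOXF1, CYBA, SPATA33, ZNF429, ZNF117 and KRCC1, and they were chosen by their read counts in the deficient libraries against WT. Their difference between genotypes is therefore a description here, with no test. All 10 had a row for the same RefSeq transcript in both HEK293T count tables, which share 10368 transcripts. HEK293T is a human embryonic kidney line, and the series also holds 3 libraries of the mouse line N2a that are not used here. RNA depleted of ribosomal RNA was sequenced from 7 HEK293T libraries, each of a different culture condition within its set. A set here means the libraries of the same count table. The stress set held WT cells after mock treatment, after 24 h without glucose (GD, which the submitters describe as metabolic oxidative stress) or after 6 h in 300 nM thapsigargin (TG). Thapsigargin blocks the calcium pump of the endoplasmic reticulum and causes stress there. The genotype set held mock and GD libraries of WT cells and of the UFD1s-deficient line. Mock and GD thus form 3 pairs, WT of the stress set, WT of the genotype set and the deficient line, and no condition was repeated within a set. The sources used here do not say how the deficient line was made, whether it is a single clone, or whether libraries came from separate cultures.

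UFD1 works with the ATPase VCP (p97), which pulls ubiquitinated proteins out of membranes and complexes for degradation. The genes described here do not belong to that machinery. EN2 and GBX2 are homeobox transcription factors that set up the midbrain and hindbrain, and FOXF1 is a forkhead factor of the mesenchyme of lung and gut that responds to hedgehog signalling. ZNF429 lies in a large cluster of KRAB zinc finger genes on chromosome 19, whose products bind DNA, often in mobile elements, and recruit the corepressor TRIM28. ZNF117 encodes another protein with C2H2 zinc fingers. CYBA encodes p22phox, the membrane partner that NADPH oxidases need to make superoxide. ALPK3 is an atypical kinase of the alpha-kinase family, best known from heart muscle. VPS9D1-AS1 is a noncoding RNA antisense to VPS9D1, studied as a MYC-responsive transcript in colon cancer, SPATA33 encodes a sperm protein that binds the phosphatase calcineurin, and KRCC1 encodes a protein with a lysine-rich coiled coil.

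Of the 10 genes, 4 lie on chromosome 16 (FOXF1, CYBA, SPATA33 and VPS9D1-AS1, in this order), 2 on chromosome 7 (ZNF117 and EN2), 2 on chromosome 2 (GBX2 and KRCC1), 1 on chromosome 15 (ALPK3) and 1 on chromosome 19 (ZNF429). VPS9D1-AS1 overlaps VPS9D1, GBX2 overlaps the antisense gene GBX2-AS1, and ZNF117 overlaps the endogenous retrovirus gene ERV3-1 and a readthrough transcript of both. Whether the counting used strand is not stated, so reads from where these genes overlap may have been counted for either gene.

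The start regions of 4 genes are printed, those with the largest losses (VPS9D1-AS1 and ALPK3) and a pair with promoters rich and poor in GC boxes (CYBA and ZNF117). They come from RefSeq on GRCh38.p14, with 250 bases before and 50 after the start, at chr16:89711606-89711905 (+ strand) for VPS9D1-AS1, chr15:84817106-84817405 (+ strand) for ALPK3, chr16:88651004-88651303 (- strand) for CYBA and chr7:64990987-64991286 (- strand) for ZNF117. Each is written 5′ to 3′ on the strand of its gene. Capitals mark matches, on either strand, to the GC box (GGGCGG or CCGCCC), the TATA box (TATAAA or TTTATA) and the CCAAT box (CCAAT or ATTGG), and in CYBA a pair of GC boxes overlaps.
VPS9D1-AS1: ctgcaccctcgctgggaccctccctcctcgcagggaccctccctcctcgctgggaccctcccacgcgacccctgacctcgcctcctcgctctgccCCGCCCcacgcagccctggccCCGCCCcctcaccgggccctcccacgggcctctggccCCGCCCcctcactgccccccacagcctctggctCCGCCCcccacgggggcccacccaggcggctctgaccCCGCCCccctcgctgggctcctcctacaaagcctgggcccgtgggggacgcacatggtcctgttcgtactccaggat
ALPK3: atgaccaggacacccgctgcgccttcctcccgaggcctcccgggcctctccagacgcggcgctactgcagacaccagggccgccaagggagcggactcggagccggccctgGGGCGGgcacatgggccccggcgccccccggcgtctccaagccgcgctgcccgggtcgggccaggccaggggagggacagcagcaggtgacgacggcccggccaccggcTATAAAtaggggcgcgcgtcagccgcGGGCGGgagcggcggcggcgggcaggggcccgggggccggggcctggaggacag
CYBA: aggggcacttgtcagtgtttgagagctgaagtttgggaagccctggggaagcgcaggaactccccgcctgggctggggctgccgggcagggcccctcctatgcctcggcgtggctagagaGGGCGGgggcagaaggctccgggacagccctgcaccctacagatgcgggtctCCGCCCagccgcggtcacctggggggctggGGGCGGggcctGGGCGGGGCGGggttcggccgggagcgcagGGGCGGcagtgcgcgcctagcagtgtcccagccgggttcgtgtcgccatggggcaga
ZNF117: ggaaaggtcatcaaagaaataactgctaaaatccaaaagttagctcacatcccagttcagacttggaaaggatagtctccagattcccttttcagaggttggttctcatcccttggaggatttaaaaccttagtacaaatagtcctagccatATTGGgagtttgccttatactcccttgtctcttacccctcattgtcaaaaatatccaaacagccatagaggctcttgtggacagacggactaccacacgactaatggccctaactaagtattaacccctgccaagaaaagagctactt
A total of 9 of the 10 genes matched a promoter entry, with 3 entries for SPATA33. The VPS9D1-AS1 stretch holds 5 GC boxes and 21 CpG dinucleotides, and that of CYBA holds 6 and 23. ALPK3 has 2 GC boxes, a TATA box and 36 CpG dinucleotides. ZNF117 stands at the other end, with a CCAAT box, 0 GC boxes and 2 CpG dinucleotides. Among the entries not printed, EN2 is richest in CpG dinucleotides with 50, GBX2 has 36, SPATA33 has 37, 46 and 42, KRCC1 29 and ZNF429 9, against a median of 14 over 35116 promoters of the same length (quartiles 4 and 28). A GC box was found in 7 of the 9 genes and in 45.0% of all promoters, a TATA box in 2 (ALPK3 and ZNF429) and in 11.5%, and a CCAAT box in 3 (GBX2, ZNF429 and ZNF117) and in 34.6%. A match describes letters and is no measured binding site.

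The libraries held between 11461365 and 19024327 reads on transcripts. Levels below are CPM, read counts per 1000000 reads, scaled between libraries by TMM, a factor computed over the shared transcripts, and they are not divided by transcript length, so they compare libraries and not genes. The UFD1 row does not check the genotype labels. It counted 168 reads in mock and 107 in GD for WT cells of the genotype set and 199 and 193 for the deficient line, and the stress table counts another UFD1 transcript. Of 9 HEK293T markers, 8 had rows in the stress table and 6 in the genotype table; VIM had 11447 to 16304 reads, while KRT8 had at most 2 in the stress set and 28 to 77 in the genotype set. Of 18 markers of other cell types, 10 and 2 had rows, with at most 94 reads in any library. In bulk RNA, fewer cells that express a gene and less RNA per cell cannot be told apart.

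**Figure D1:**
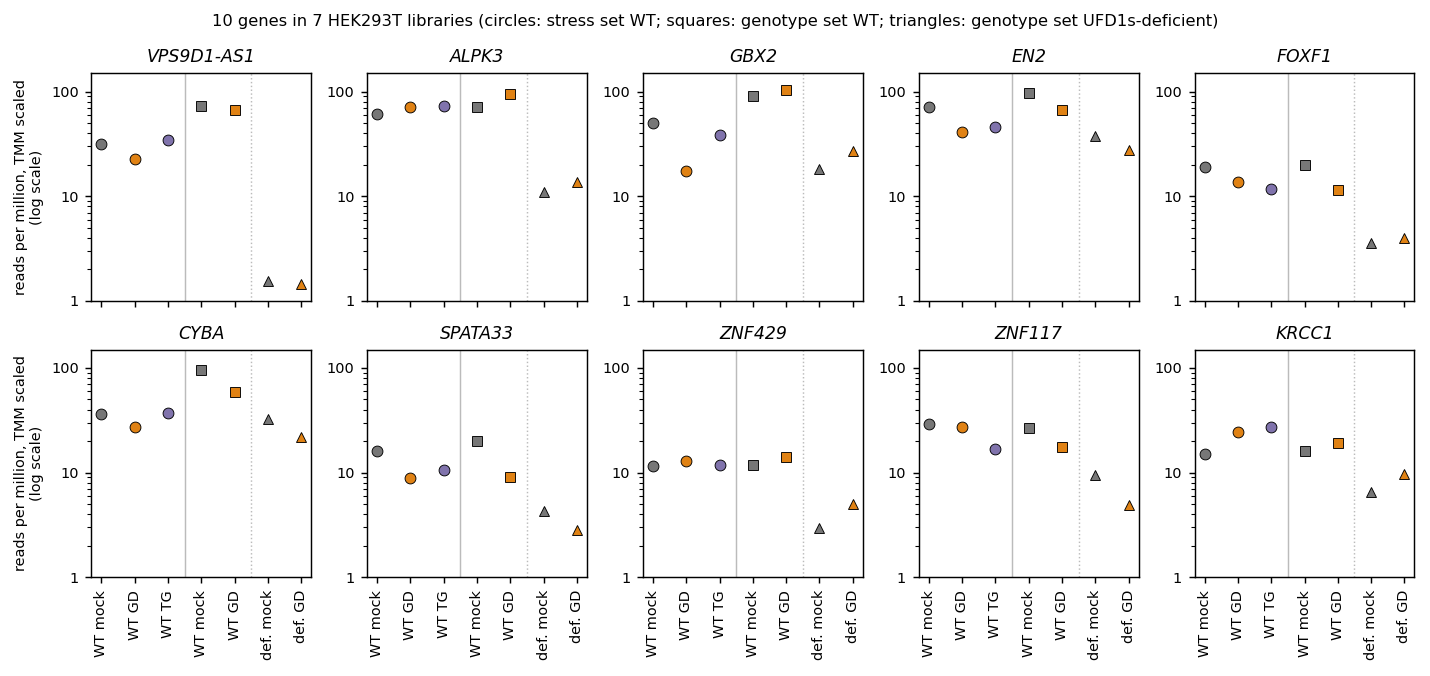
Level of each of the 10 genes in each of the 7 HEK293T libraries, in TMM-scaled CPM on a log scale. Each point is 1 library (circles, stress-set WT; squares, genotype-set WT; triangles, UFD1s-deficient; grey mock, orange GD, purple TG). The triangles lie below both squares for all 10 genes and below all 5 WT points for 8 of them.

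VPS9D1-AS1 was the nearest to a complete loss. Its level was 31.7 CPM in stress-set mock, 22.8 in stress-set GD and 34.2 in stress-set TG, 72.9 and 66.5 in the genotype-set WT pair (mock, then GD), and 1.57 and 1.46 in the deficient pair. The reads behind the last 4 values were 931, 741, 21 and 17. Both deficient libraries lay far below every WT library, and the stress-set WT libraries in turn lay below those of the genotype set. Against the WT library of the same set and treatment, deficient cells were 46.5-fold lower in mock (exact 95% interval 30.3 to 75.5) and 45.5-fold lower in GD (28.2 to 78.5). Such intervals cover counting error only. This was the lowest of 10121 ratios in mock and of 9608 in GD among transcripts whose higher library held at least 50 reads. Against stress-set WT, deficient mock stood at 4.93% and deficient GD at 6.42%. VPS9D1, the gene on the other strand, had 311 reads in WT mock and 320 in deficient mock, and 272 and 211 in GD, or 98.1% and 74.8% of WT.

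ALPK3, the kinase gene, was next in size. Its level was 60.7, 70.8 and 72.6 CPM in stress-set mock, GD and TG, 71.8 and 95.6 in the genotype-set WT pair, and 11.04 and 13.7 in the deficient pair. The 5 WT libraries lay between 60.7 and 95.6 CPM and both deficient libraries well under them. The fold was 6.50 (5.46 to 7.79) in mock and 6.99 (5.91 to 8.31) in GD. Against stress-set WT, deficient cells held 18.2% in mock and 19.3% in GD.

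Among the transcription factors, GBX2 had 50.2, 17.4 and 38.7 CPM in stress-set mock, GD and TG, 91.6 and 104 in the genotype-set WT pair, and 18.1 and 26.8 in the deficient pair. Deficient GD thus lay above stress-set WT GD, and the groups overlapped. Within the genotype set GBX2 was 5.07-fold lower in mock (4.42 to 5.85) and 3.90-fold lower in GD (3.43 to 4.43). FOXF1 had 18.9, 13.6 and 11.9 CPM in stress-set mock, GD and TG, 20.04 and 11.6 in the genotype-set WT pair, and 3.58 and 3.95 in the deficient pair, with no overlap. The WT values were lower in GD than in mock and the deficient values were not, and the fold was 5.60 (4.10 to 7.79) in mock and 2.93 (2.08 to 4.19) in GD. EN2 had 71.6, 41.3 and 46.1 CPM in stress-set mock, GD and TG, 97.9 and 67.5 in genotype-set WT, and 37.5 and 27.7 in the deficient libraries. Deficient mock lay just under stress-set WT GD, the lowest WT library for EN2. Its fold was 2.61 (2.35 to 2.90) in mock and 2.44 (2.14 to 2.79) in GD.

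The zinc finger genes ZNF429 and ZNF117 were each lower in both deficient libraries than in all 5 WT libraries. ZNF429 had 11.6, 12.9 and 11.9 CPM in stress-set mock, GD and TG, 11.7 and 14.0 in genotype-set WT, and 2.98 and 4.98 in the deficient libraries. All 5 WT libraries stood close together, and the fold was 3.94 (2.76 to 5.73) in mock and 2.81 (2.06 to 3.86) in GD. ZNF117 had 29.0, 27.4 and 16.6 CPM in stress-set mock, GD and TG, 26.9 and 17.7 in genotype-set WT, and 9.55 and 4.90 in the deficient libraries. Its TG library was the lowest of WT, and within the genotype set the deficient libraries were lower by 2.82-fold (2.30 to 3.48) in mock and 3.61-fold (2.67 to 4.93) in GD.

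CYBA was low in deficient cells against genotype-set WT and close to the level of stress-set WT. Its level was 36.7, 27.4 and 37.0 CPM in stress-set mock, GD and TG, 95.4 and 58.8 in the genotype-set WT pair, and 32.8 and 21.7 in the deficient pair. Within the genotype set it was 2.91-fold lower in mock (2.60 to 3.25) and 2.70-fold lower in GD (2.33 to 3.14). Deficient mock held 89.5% and deficient GD 79.2% of the stress-set WT level, and deficient mock lay above stress-set WT GD. SPATA33 had 16.2, 8.81 and 10.5 CPM in stress-set mock, GD and TG, 20.1 and 9.06 in genotype-set WT, and 4.33 and 2.84 in the deficient libraries, with no overlap. It was 4.65-fold lower in mock (3.49 to 6.30) and 3.20-fold lower in GD (2.14 to 4.89), on 58 and 33 deficient reads. KRCC1 had 14.9, 24.6 and 26.97 CPM in stress-set mock, GD and TG, 16.2 and 19.02 in genotype-set WT, and 6.49 and 9.80 in the deficient libraries. Its fold was the smallest of the 10, 2.497 (1.94 to 3.25) in mock and 1.94 (1.54 to 2.46) in GD.

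Both deficient libraries lay below all 5 WT libraries for 8 of the 10 genes, all but GBX2 and CYBA, and for 7.38% of all tested transcripts. They lay below both genotype-set WT libraries for 10 of 10, against 16.5% of all. The genes were chosen for low counts against WT, so nothing is read from either count. With a bound of 2-fold and 50 reads in the higher library in mock and in GD, 0.385% of 9356 transcripts were lower in deficient cells, and 9 of the 10 genes were among them. The other, KRCC1, missed the bound in GD. The genes were chosen by this same contrast, so nothing is read from this count either.

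The 5 other transcripts with 100 or more reads in WT mock and the lowest ratios were the autophagy genes ATG4C and ATG101, the scavenger receptor gene SCARA5, the polyamine acetyltransferase gene SAT1 and the stem cell marker LGR5. They lie on chromosomes 1, 12, 8, X and 12, and so off chromosomes 16 and 7. ATG4C and ATG101 were low in stress-set WT mock as well, at 1.13 and 2.20 CPM, against 1.94 and 4.62 in deficient mock and 15.3 and 36.9 in genotype-set WT mock. Ranked by the weaker of their mock and GD ratios among 7998 such transcripts, VPS9D1-AS1 and ALPK3 took places 1 and 2, and the places of the other 8 ran from 5 (GBX2) to 40 (KRCC1).

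The lower levels of the chromosome 16 genes against genotype-set WT were set beside the other genes of that chromosome. The log2 ratios that follow are deficient over WT within the genotype set, with a prior count of 5 reads, over transcripts whose higher library held at least 50 reads in mock and in GD, and leave the 10 genes out. On chromosomes other than 16 and 7 the median ratio was 0.04 in mock and 0.02 in GD over 8500 genes. On chromosome 16 before FOXF1 it was -0.40 in both over 384 genes, of which 85.2% were lower in both treatments, against 34% of all transcripts. From FOXF1 to the end of the chromosome it was -0.77 in mock and -0.89 in GD over 28 genes, 25 of which were lower in both. In the stretch from CYBA onwards, which also holds SPATA33 and VPS9D1-AS1, 18 of 19 genes were lower in both, with medians of -0.83 and -0.90. The genes between FOXF1 and the end that passed 2-fold in both treatments were APRT, an adenine salvage enzyme, GALNS, a lysosomal sulfatase, SPIRE2, an actin nucleator, and the pseudogene URAHP. Chromosome 7 had medians of -0.35 and -0.38 over 422 genes, of which 350 were lower in both treatments. With RLE size factors or library totals alone in place of TMM, each of these medians kept its sign.

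**Figure D2:**
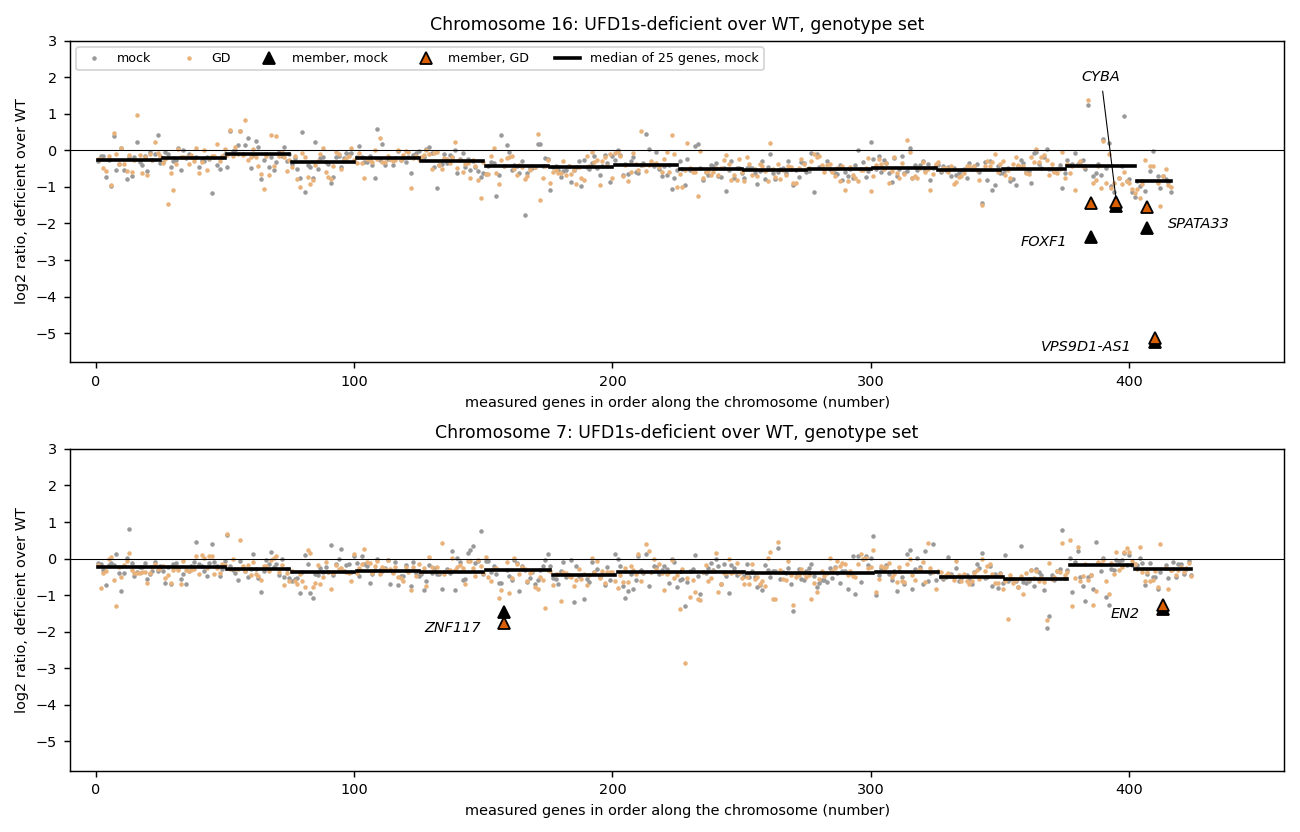
Log2 ratio of deficient over WT for measured genes in order along chromosomes 16 (top) and 7 (bottom), genotype set, mock in grey and GD in orange; triangles mark the 10-gene group, and black bars are mock medians over steps of 25 genes (12 and 22 in the last steps). Most measured genes of both chromosomes and all of the black bars sit below 0, and the triangles sit below the bars.

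The same 3 mock libraries were then compared with each other on log2 of scaled CPM plus 0.5. Over the 27 other genes from FOXF1 to the end of chromosome 16 that are in both tables, the median of deficient minus stress-set WT was 0.08, and that of stress-set WT minus genotype-set WT was -0.78. The median covers unlike parts: over the 9 genes between FOXF1 and CYBA deficient minus stress-set WT was 0.59, so stress-set WT was the lower, and over the 18 from CYBA on it was -0.02. Both parts were lower in stress-set WT than in genotype-set WT, with medians of -0.78 and -0.80. On chromosome 16 before FOXF1 deficient minus stress-set WT was -0.09 and stress-set WT minus genotype-set WT was -0.23 over 343 genes. On chromosome 7 these differences were -0.33 and -0.02 over 378 genes, so there deficient cells were low against both WT libraries. In GD deficient minus stress-set WT was 0.62 between FOXF1 and CYBA and -0.18 from CYBA on, and stress-set WT minus genotype-set WT was -1.02 and -0.52. Of the genes described here, CYBA and VPS9D1-AS1 had stress-set WT mock levels at 0.384 and 0.435 of genotype-set WT mock, while FOXF1 and SPATA33 stood at 0.943 and 0.804. EN2 and ZNF117 on chromosome 7 stood at 0.730 and 1.08. The part of these chromosome-wide differences in the levels of the genes was not tested, and neither the labels nor the tables give a chromosome count of these cells.

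**Figure D3:**
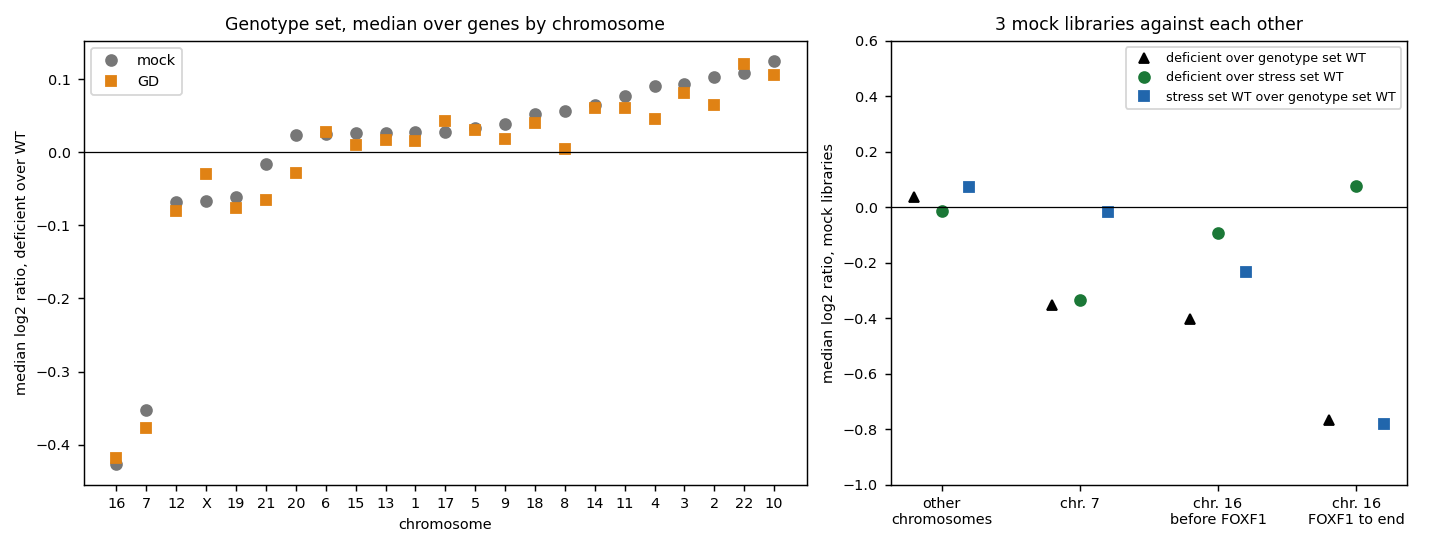
Left, median log2 ratio of deficient over WT per chromosome in the genotype set, without the 10 genes, for mock (circles) and GD (squares); chromosomes 16 (-0.43 in mock) and 7 (-0.35) stand below all others, which lie between -0.07 and 0.13 in mock. Right, medians of the log2 differences between the 3 mock libraries over 4 parts of the genome; at the end of chromosome 16 deficient over stress-set WT is 0.08 and stress-set WT over genotype-set WT is -0.78.

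Each of the 10 genes was lower than every neighbour with 50 or more reads, with the 10 genes themselves left out. Up to 5 measured genes on either side were taken as neighbours. The genes were chosen by these same ratios, so nothing is read from that count, and its share over all transcripts was not computed. Neighbours with fewer reads could be lower in mock, as were ZNF107 (-2.08) beside ZNF117 and SNAI3 (-1.55) beside CYBA. In GD those neighbours stood at 0.31 and -0.24. VPS9D1-AS1 differed from the median of its 8 neighbours by -4.49 on the log2 scale in mock and by -4.54 in GD. ALPK3 on chromosome 15 had 8 neighbours with medians of 0.07 in mock and -0.06 in GD, and itself stood at -2.66 and -2.77. GBX2 on chromosome 2 had neighbours at 0.02 and 0.02 and stood at -2.32 and -1.94. The neighbours of KRCC1, also on chromosome 2, were higher in deficient cells, at medians of 0.34 and 0.30, with KRCC1 at -1.27 and -0.93. On chromosome 7 the neighbours of EN2 had medians of -0.36 and -0.35 against -1.38 and -1.27 for EN2, and those of ZNF117 had -0.46 and -0.52 against -1.46 and -1.76. On chromosome 16 FOXF1 stood at -2.37 and -1.45 against -0.57 and -0.61, SPATA33 at -2.12 and -1.54 against -0.83 and -0.89, and CYBA at -1.53 and -1.42 against -0.46 and -0.82. The CYBA gap in GD was the smallest of all, at -0.60. For ZNF429 on chromosome 19, the 9 neighbours had medians of -0.30 and -0.35 and ZNF429 stood at -1.85 and -1.41.

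The genes were chosen between genotypes and not by their change from mock to GD, which was tested. EN2, CYBA and SPATA33 fell in GD, 3 of the 10, and 0 rose. Over all 10368 transcripts edgeR called 11.1% lower and 9.75% higher, 20.9% in all, at an adjusted p of at most 0.05. EN2 fell by 0.59 on the log2 scale (SE 0.114, n = 3 pairs, edgeR quasi-likelihood test, adjusted p = 0.00753), with changes of -0.79 in stress-set WT, -0.54 in genotype-set WT and -0.43 in the deficient line. CYBA fell by 0.57 (SE 0.118, edgeR adjusted p = 0.00999), with -0.41, -0.69 and -0.59 in the same order. SPATA33 fell by 0.91 (SE 0.209, edgeR adjusted p = 0.0153), with -0.85, -1.12 and -0.55. All 3 genes were lower in GD in 3 of 3 pairs, the deficient line included, where they started from a lower level. P-values here set the GD change against its spread over the pairs, on 2 residual degrees of freedom. In edgeR that spread is estimated partly from all other transcripts, and it may be technical. Without deficient mock the edgeR adjusted p was 0.0513 for EN2, 0.0944 for CYBA and 0.0574 for SPATA33, and without deficient GD 0.0540, 0.0972 and 0.0592. CYBA and SPATA33 also missed the threshold without genotype-set WT mock (0.0992 and 0.157) or WT GD (0.0902 and 0.118).

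The other 7 genes were not called for GD. ZNF117 changed by -0.51 (edgeR adjusted p = 0.0909), with -0.08 in stress-set WT, -0.60 in genotype-set WT and -0.91 in the deficient line. It was called in the genotype set alone, at -0.75 (edgeR adjusted p = 0.00111), and without stress-set WT mock (0.00358) or WT GD (0.000568). KRCC1 changed by 0.51 (0.0697), higher in 3 of 3 pairs at 0.71, 0.23 and 0.57. ALPK3 changed by 0.31 (0.0736) and was likewise higher in every pair, though its interval in the deficient pair (0.983 to 1.56) held 1. In the genotype set alone ALPK3 was called at 0.37 (edgeR adjusted p = 0.0117), and also without stress-set WT mock (0.0143) or WT GD (0.0108). VPS9D1-AS1 changed by -0.27 (0.227), ZNF429 by 0.35 (0.275) and FOXF1 by -0.43 (0.191).

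GBX2 was the gene whose GD response differed most between pairs. It went from 797 to 190 reads in stress-set WT, 2.88-fold lower after scaling (exact 95% interval 2.45 to 3.39), from 1170 to 1164 in genotype-set WT, and from 242 to 312 in deficient cells. On the log2 scale these changes were -1.51, 0.19 and 0.56, so GBX2 was lower in the first pair and higher in the others. Its joint change was -0.23 (SE 0.315, edgeR adjusted p = 0.638). In the genotype set alone it was 0.34 and called (edgeR adjusted p = 0.00909), as it was at 0.34 without stress-set WT mock (0.0255) or WT GD (0.0101). By the rule of size GBX2 was the only 1 of the 10 to pass 2-fold in stress-set WT, where 3.71% of transcripts passed it downwards and 3.52% upwards. SPATA33 was the only 1 to do so in genotype-set WT (2.22-fold lower, 1.76 to 2.82), where 4.42% passed downwards and 2.36% upwards. In deficient cells 0 passed, where 4.17% of transcripts passed downwards and 2.14% upwards, and VPS9D1-AS1 and FOXF1 had too few reads there to be called.

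Whether GD acted differently in deficient cells was tested as an interaction of genotype and treatment. It called 0 of 10368 transcripts in edgeR (0%, with 123 at an unadjusted p under 0.05) and 0 in DESeq2 (22 unadjusted). Among the 10 genes, GBX2 had the largest difference, 1.19 on the log2 scale (SE 0.586, edgeR adjusted p = 1, unadjusted 0.0725), followed by FOXF1 at 0.77 (SE 0.486, adjusted p = 1) and ZNF117 at -0.62 (SE 0.431, adjusted p = 1). For GBX2 the WT pairs themselves differed, at -1.51 in the stress set and 0.19 in the genotype set, against 0.56 in the deficient line. The 1.19 therefore depends largely on stress-set WT. The spread in this test is that between the 2 WT pairs. On counts simulated with 1 dispersion for all transcripts and the same response in both WT pairs, this test found 10% of 2-fold differences and 87% of 4-fold ones among 10368 transcripts. A 2-fold difference would thus mostly have been missed. For the 10 genes the test is also not free of their choice, which asked for low counts in both deficient libraries.

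**Figure D4:**
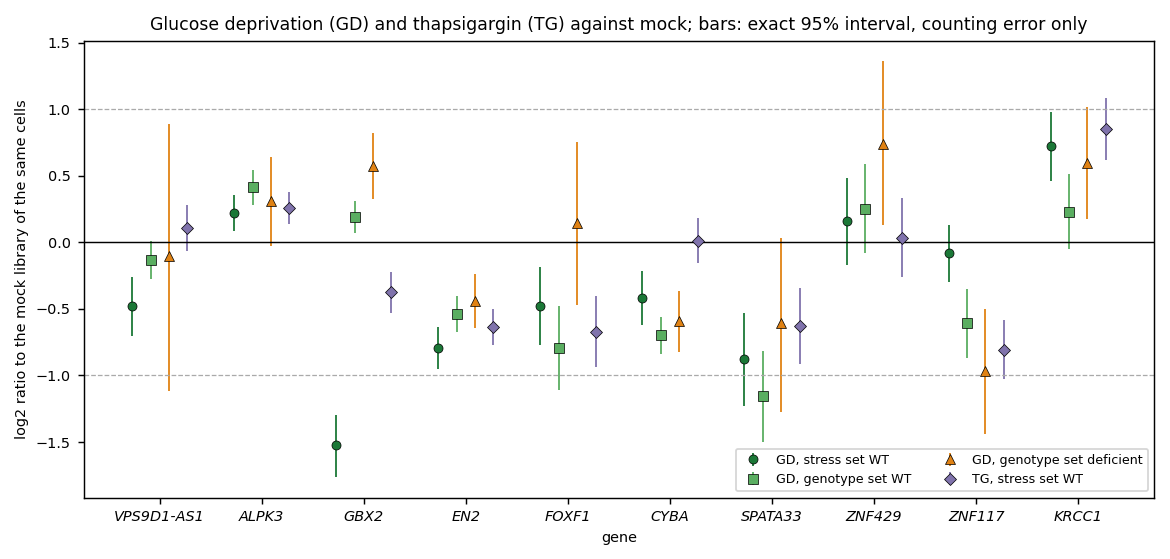
Log2 ratio to the mock library of the same cells for each of the 10 genes, for GD in the 3 pairs (circles, squares, triangles) and for TG in stress-set WT (diamonds); bars are exact 95% intervals of the read ratio and cover counting error only, and dashed lines mark 2-fold. EN2, CYBA and SPATA33 lie below 0 in all 3 GD pairs, GBX2 changes side between pairs, and KRCC1 is highest under TG. The SPATA33 bar of the deficient pair crosses 0.

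Thapsigargin was given to stress-set WT cells alone, in 1 library, so its effect has no test. Of the 10 genes 0 passed 2-fold, a bound that 4.75% of 9116 transcripts passed upwards and 3.36% downwards. KRCC1 had the highest ratio, from 237 reads in mock to 443 in TG, at 1.81 (exact 95% interval 1.54 to 2.12). ZNF117 had the lowest ratio, 0.572 (0.491 to 0.666), followed by FOXF1 at 0.628 (0.522 to 0.755), EN2 at 0.645 (0.587 to 0.708) and SPATA33 at 0.647 (0.530 to 0.788). GBX2 had a ratio of 0.771 (0.694 to 0.857) and ALPK3 of 1.20 (1.10 to 1.30). The intervals of VPS9D1-AS1 (1.08), CYBA (1.01) and ZNF429 (1.02) held 1. The GD and TG ratios of the stress set share their mock library. Under GD in that set CYBA had a ratio of 0.749 and ZNF117 of 0.945, where TG gave 1.01 and 0.572.

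Genes related to these 10 or to UFD1, as partners, relatives of the same family or chromosome neighbours, were taken as lists. VPS9D1-AS1, SPATA33 and KRCC1 had no list. Between genotypes edgeR called 0.781% of 10368 transcripts lower and 0.328% higher, with a median log2 difference of 0.01, and the median GD change was -0.02. The genotype p-values compare the deficient line with the WT cells of the genotype set, which had only a mock and a GD library each. They do not measure the spread between lines, clones or cultures. Of the midbrain and hindbrain list, which holds the partners of EN2 and GBX2, 8 were tested, with 0 higher and 0 lower between genotypes (median -0.12). Its member EN1, the paralog of EN2, had 118 reads in genotype-set WT mock against 146 in deficient mock, and 77 against 112 in GD. In GD the FGF inhibitor SPRY2 rose by 0.55 (edgeR adjusted p = 0.00936) and the homeobox cofactor MEIS1 fell by 0.78 (0.00555), with a median of -0.09 over the list.

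Of the list around FOXF1 and hedgehog signalling, 12 were tested (median -0.47 between genotypes). That median includes FOXL1 (-1.15), FOXC2 (-0.83) and FENDRR (-0.62), neighbours of FOXF1 on chromosome 16, and GLI3 and SMO (-0.18) on chromosome 7. Both chromosomes were low as a whole. The other tested members ran from -0.59 (GAS1) to 0.02 (SUFU). GLI3, a transcription factor of the pathway that lies on chromosome 7, was lower in deficient cells by the same fit (-0.54, edgeR adjusted p = 0.0463), and 0 were higher. FENDRR, the noncoding RNA transcribed divergently from FOXF1, had 121 reads in genotype-set WT mock against 58 in deficient mock, and 23 against 28 in GD, and was not called between genotypes. In GD 4 of the 12 fell and 0 rose (median -0.23): the coreceptors GAS1 (-1.85) and BOC (-0.64), the inhibitor SUFU (-0.81) and FENDRR (-1.21), with edgeR adjusted p of 0.00126, 0.0485, 0.00189 and 0.0274. Under TG the coreceptor CDON passed 2-fold downwards, from 94 to 36 reads.

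The KRAB zinc finger genes around ZNF429 on chromosome 19 were low beside it. All 17 with 50 or more reads were lower in deficient cells in mock and in GD, with medians of -0.40 and -0.35, where 34% of all transcripts were lower in both. On chromosome 19 as a whole, 277 of 630 genes were lower in both, with medians of -0.06 and -0.08. In the fit, 2 of 16 genes of the cluster were called lower, ZNF492 (-1.10, edgeR adjusted p = 0.0440) and ZNF90 (-0.998, 0.0463), and 0 higher, with a median of -0.33. ZNF492 had 255 reads in genotype-set WT mock against 119 in deficient mock, and 228 against 117 in GD. In GD 1 of the 16 fell, ZNF708 by 0.42 (edgeR adjusted p = 0.0473), and 0 rose (median -0.09). Of the 3 tested zinc finger genes next to ZNF117 on chromosome 7, ZNF736 was called lower between genotypes (-0.88, edgeR adjusted p = 0.0437) and ZNF680 stood at -0.76 (0.0569). The median of the 3 was -0.88 between genotypes, and in GD 0 were called (median 0.25; 2164 of 10368 transcripts were called in all). Zinc finger genes of a cluster resemble each other, and reads that fit several of them may have been divided among them.

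The corepressor list that serves KRAB proteins had 0 of 9 called between genotypes (median -0.09). TRIM28 itself had 14930 reads in genotype-set WT mock against 14781 in deficient mock, and 9111 against 10017 in GD. In GD TRIM28 fell by 0.47 and the deacetylase HDAC1 by 0.53 (edgeR adjusted p = 0.00590 and 0.00350), while CBX5, the heterochromatin protein HP1 alpha, rose by 0.81 (0.0455), with a median of -0.18. Of the NADPH oxidase partners of CYBA, 5 were tested and 0 called between genotypes or in GD (medians 0.03 and -0.03). The 4 with the most reads were SH3PXD2A (0.30 between genotypes), POLDIP2 (-0.14), RAC2 (0.43) and RAC1 (0.03). CYBB, the phagocyte oxidase subunit that pairs with p22phox, had 26 reads in genotype-set WT mock against 41 in deficient mock, and 52 against 35 in GD. Among 3 other alpha kinases 0 were called between genotypes (median 0.14). In GD TRPM7, a channel fused to such a kinase, rose by 0.35 (edgeR adjusted p = 0.0207; median of the 3 0.35), and under TG ALPK2 passed 2-fold upwards, from 81 to 474 reads. VCP and NPLOC4, the partners of UFD1, were not called between genotypes (median 0.15), and VCP fell by 0.32 in GD (edgeR adjusted p = 0.0262; median of both -0.27).

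All 12 GD calls and all 4 genotype calls of list members named above kept their direction when any of the 6 libraries was left out. The GD calls of GAS1 and SUFU held in all 6 of these fits, with edgeR adjusted p of at most 0.0190 and 0.0377, and that of CBX5 in 0. Those of MEIS1, HDAC1 and ZNF708 were lost without either deficient library, and the other 6 also without either WT library of the genotype set. The 4 genotype calls (GLI3, ZNF492, ZNF90 and ZNF736) were lost without deficient mock, deficient GD or genotype-set WT GD, and all but ZNF736 without genotype-set WT mock, with edgeR adjusted p of up to 0.814 for GLI3.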

How the data were processed

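Per the labels' protocols, TRIzol was used for extraction and the TruSeq Ribo Profile kit for the libraries. Bowtie2, cutadapt, bedtools, FastQC and hg19 appear in the submitters' processing notes. The annotation, the counting rule and any use of strand are not stated there or in the labels. Values are raw counts of reads for each RefSeq transcript, as deposited by the authors (16120 rows for the stress set, 11976 for the genotype set, where the lowest row sum is 75). A row is a transcript and need not be the gene total. The genotype table also holds log2 ratios and p-values deposited by the authors, which were not used.

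The 10 genes and the lists were chosen with earlier results of these data known. All 10 were named, with the called members of each list or those with the most reads, up to 5 neighbours a side, and the 5 other transcripts with the lowest ratios. EN1, CYBB and ZNF680 are named outside that rule, after their values were seen.

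Counts of the 10368 shared transcripts in the 6 mock and GD libraries were tested with edgeR 4.0.16 in R 4.3.3 (quasi-likelihood, TMM, terms for set, genotype and treatment, 2 residual degrees of freedom, Benjamini-Hochberg adjustment at 0.05, common dispersion 0.0192). The interaction had 1 residual degree of freedom. The expression filter removed 0 shared transcripts. DESeq2 1.42.0, other scalings, filters and sets of libraries were alternatives. Single-library comparisons have no p-value. They were called at 2-fold with 50 reads and a prior count of 5, with exact conditional 95% intervals. On simulated counts of 10368 transcripts the GD test found 94% of the planted 2-fold changes and 100% of those of 4-fold, and 7 of its 201 calls were false. All simulated transcripts had the common dispersion, and a planted change was the same in every pair. Real GD responses could differ between pairs, as for GBX2, so these rates may be too favourable. Chromosomes and gene order were taken from RefSeq's gene table for GRCh38.p14, not the hg19 of the counts. It placed 11961 of the 11976 genotype rows, and no gene coordinates of the count tables are given.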

Additional observations from a re-analysis of the deposited data

Results flagged for a closer look

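The GD response of FOXF1 had opposite signs in the WT pairs and in deficient cells, at -0.47 in stress-set WT, -0.77 in genotype-set WT and 0.13 in the deficient line on the log2 scale. The difference of deficient minus WT was 0.77 (SE 0.486, n = 3 pairs). The interaction test of that difference did not call it (edgeR adjusted p = 1, unadjusted 0.145). The deficient values rest on 48 reads in mock and 46 in GD. FOXF1 was chosen for low counts in both of these libraries, so this difference is not free of the choice.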

How the results depend on the processing

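Each library stands alone in its set, so the tests rest on 3 pairs and the single-library ratios on counting error. In GD, edgeR called 1011 transcripts higher and 1153 lower. It called 1981 and 2059 in the genotype set alone, where 2 of the 10 genes, ALPK3 and GBX2, were called higher and GBX2 turned to 0.34. It called 224 and 266 in the 4 WT libraries, where 0 of the 10 were called lower. The pairing comes from set and genotype, since the labels carry no replicate numbers. With no replicate block (treatment as the only term) 14 transcripts were called higher and 9 lower, and 0 of the 10 genes lower. Leaving out a library gave 219 to 1970 higher and 268 to 2069 lower calls, 0 to 4 of the 10 genes lower and 0 to 2 higher, with GBX2 from -0.62 to 0.34. The calls were 236 and 268 without deficient mock, 219 and 275 without deficient GD, 541 and 648 without genotype-set WT mock, 514 and 633 without genotype-set WT GD, 1871 and 1935 without stress-set WT mock, and 1970 and 2069 without stress-set WT GD. A left-out library leaves its partner without a pair, so those fits rest on the other 2 pairs.

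Between genotypes, 34 higher and 81 lower calls became 22 higher with library totals alone, 61 and 159 in DESeq2, and 915 and 1027 in the genotype set alone, and ranged from 2 to 907 and from 2 to 1031 when a library was left out. They were 3 and 2 without deficient mock, 2 and 3 without deficient GD, 730 and 925 without stress-set WT mock, and 907 and 1031 without stress-set WT GD, with 50 lower without genotype-set WT mock. The interaction of ALPK3, -0.01, was 0.0089 with library totals alone, and leaving out a library was not run for the interaction because no residual degree of freedom remains. With a minimum of 20 reads, 529 transcripts were lower under TG. In GD 497 were then higher and 554 lower in stress-set WT, 359 higher in genotype-set WT and 325 higher in deficient cells. With a 1.5-fold bound, TG gave 1090 higher and 968 lower (1 and 4 of the 10 genes), GD in stress-set WT 988 and 1053 (1 and 3), in genotype-set WT 890 and 1255 (4 of the 10 lower) and in deficient cells 845 and 1238 (1 and 2).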
